A study of Homo sapiens with 6 samples.

Results

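The 10 genes RB1, RBL1, RBL2, LIN9, LIN37, LIN52, LIN54, RBBP4, MYBL2 and FOXM1 encode the pocket proteins, the MuvB core of the DREAM complex, and the B-MYB and FOXM1 transcription factors that take over from it in dividing cells. They were chosen by name, and each was 1 of the 62754 gene rows of a polyadenylated RNA sequencing table of HPNE-hTERT cells. This human line of pancreatic ductal epithelium is not malignant and was immortalized with telomerase. The FOLFIRINOX cells received 5-fluorouracil at 10 µM, SN-38 (the active form of the topoisomerase inhibitor irinotecan) at 25 nM and oxaliplatin at 5 µM for 4 days, a treatment that the labels describe as inducing senescence. The vehicle cells received DMSO. Each group had 3 libraries, named here by the P number of their columns (P14, P15 and P19), and all came from the 1 immortalized line. The comparison asks how far the RNA of each of the 10 genes differed after the drugs.

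In a cell that has left the cycle, the pocket proteins p107 (RBL1) and p130 (RBL2) join E2F4 or E2F5, a DP partner and the MuvB core to form DREAM, which holds down a large set of cell cycle genes. RB1 encodes the retinoblastoma protein, which restrains the activator E2Fs. When cyclin-dependent kinases phosphorylate the pocket proteins, MuvB (LIN9, LIN37, LIN52, LIN54 and RBBP4) is released, binds B-MYB (MYBL2) and later recruits FOXM1 to switch on mitotic genes. The kinase inhibitor p21 (CDKN1A) blocks that phosphorylation. LIN54 contacts DNA at the cell cycle genes homology region (CHR), and E2F4 with DP contacts E2F sites. MYBL2 and FOXM1 are themselves known targets of this repression.

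Recovered reads in genes summed to between 83981154 and 91992824 per FOLFIRINOX library and between 86435436 and 97762802 per vehicle library. Mitochondrial ribosomal RNA took 1.18% to 2.74% of reads in FOLFIRINOX libraries and 0.552% to 0.864% in vehicle libraries, with P14 highest in each group, and its part in the results below was not tested. The ductal label was matched in part: KRT18 averaged 7148 ± 363 and 9901 ± 905 normalized reads (FOLFIRINOX and vehicle, SD, n = 3 each), whereas the ductal keratin KRT19 reached at most 17.7 in FOLFIRINOX and 4.24 in vehicle libraries, and EPCAM at most 6.17 in FOLFIRINOX and 0 in vehicle libraries. The mesenchymal marker VIM averaged 276784 ± 15670 and 522537 ± 54996. Only 6 of the 10 listed ductal markers, but all 6 mesenchymal ones, passed the filter for the limma test below. Of those tested, 2 of 6 ductal and 5 of 6 mesenchymal ones were called lower in FOLFIRINOX libraries, and none higher, where 12.2% of all tested genes were called lower. Those counts of lower markers were 1 to 3 and 4 to 6 with 1 library left out, 1 and 3 without both P14 libraries, and 4 and 6 with P number as a replicate block. The leukocyte gene PTPRC stood at 4.11, 3.93 and 35.5 in FOLFIRINOX libraries and at 0 in each vehicle library, too low to test. CD14, a monocyte gene, had 18.5, 21.6 and 29.9 in FOLFIRINOX libraries and 9.22, 0 and 9.35 in vehicle libraries (limma adjusted p = 0.0726, and 0.00694 with the block). The part of these markers in the results was not tested.

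Promoter windows of 300 bases (250 before and 50 after an annotated start) were taken from the RefSeq table of GRCh38.p14 and matched 9 of the 10 genes, all except FOXM1. The window of RB1 starts at chr13:48476200, inside the gene and not at its first start, so it says nothing of the main RB1 promoter. For 5 genes 1 window each is printed, because they set the genes that were lower after the drugs beside ones that were not called. LIN9, RBL2 and RBBP4 have other windows as well. Capitals mark CHR words (TTTGAA or TTCGAA) and E2F words, searched on both strands. The E2F words were TTCCCGC (a spelling of the textbook site), TTGGCGC (another such spelling), TTCGCGC (likewise), TTGCCGC (likewise) and GGCGGGA. The last word is the first spelling read on its other strand, shifted by 1 base. MYBL2 is at chr20:43666864-43667163 on the plus strand, RBL1 at chr20:37095948-37096247 on the minus strand, LIN9 at chr1:226309115-226309414 on the minus strand, RBL2 at chr16:53434221-53434520 on the plus strand and RBBP4 at chr1:32650958-32651257 on the plus strand.
MYBL2: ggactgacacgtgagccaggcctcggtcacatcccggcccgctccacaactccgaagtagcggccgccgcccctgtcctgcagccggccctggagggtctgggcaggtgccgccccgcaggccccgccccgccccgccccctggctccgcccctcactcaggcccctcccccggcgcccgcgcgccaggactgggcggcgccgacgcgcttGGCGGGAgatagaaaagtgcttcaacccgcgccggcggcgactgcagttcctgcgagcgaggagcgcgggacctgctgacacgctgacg
RBL1: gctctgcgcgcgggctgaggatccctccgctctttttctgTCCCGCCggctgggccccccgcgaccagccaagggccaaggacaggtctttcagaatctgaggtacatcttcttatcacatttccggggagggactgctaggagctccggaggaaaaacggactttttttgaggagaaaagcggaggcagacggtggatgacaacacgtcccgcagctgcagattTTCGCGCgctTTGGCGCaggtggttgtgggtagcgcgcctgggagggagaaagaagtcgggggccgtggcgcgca
LIN9: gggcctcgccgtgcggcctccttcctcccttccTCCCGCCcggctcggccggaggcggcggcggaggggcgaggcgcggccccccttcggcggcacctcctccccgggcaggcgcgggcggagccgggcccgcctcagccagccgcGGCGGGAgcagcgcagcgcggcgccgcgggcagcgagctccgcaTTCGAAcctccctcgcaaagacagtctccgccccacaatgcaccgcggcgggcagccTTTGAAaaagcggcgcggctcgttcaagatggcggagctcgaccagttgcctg
RBL2: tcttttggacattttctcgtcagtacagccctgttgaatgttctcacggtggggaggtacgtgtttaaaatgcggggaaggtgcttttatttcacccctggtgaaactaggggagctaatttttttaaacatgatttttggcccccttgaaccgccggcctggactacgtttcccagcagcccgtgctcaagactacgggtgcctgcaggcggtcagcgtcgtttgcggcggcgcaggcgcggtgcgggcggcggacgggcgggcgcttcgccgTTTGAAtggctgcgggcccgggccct
RBBP4: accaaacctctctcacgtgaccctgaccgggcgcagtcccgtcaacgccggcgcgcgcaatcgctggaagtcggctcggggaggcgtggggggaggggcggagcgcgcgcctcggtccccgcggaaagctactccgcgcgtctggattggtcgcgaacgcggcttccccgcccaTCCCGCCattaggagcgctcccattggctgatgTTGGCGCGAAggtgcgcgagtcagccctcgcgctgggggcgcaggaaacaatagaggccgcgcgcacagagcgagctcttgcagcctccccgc

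The MYBL2 window held 1 E2F word, 39 bases before the start. RBL1 held 3, at 210, 25 and 15 bases before the start. The printed LIN9 window held CHR words 60 and 3 bases before its start and E2F words 217 and 104 bases before it. Of the other LIN9 windows, the one from chr1:226309454 held 1 E2F word and no CHR word. The one from chr1:226309718 held neither. The printed RBL2 window held a CHR word 24 bases after the start and no E2F word, and its other window, from chr16:53435369, held neither. RBBP4, whose RNA was not called different, held 3 E2F words at 76, 43 and 40 bases before the start, the last 2 overlapping. Its other window, from chr1:32651106, overlaps the printed one and held the same words. Counting the internal window of RB1, which held neither, 7 of the 9 genes had an E2F word and 4 had a CHR word in some window, against 26.4% and 19.5% of all 27305 genes with windows. The shares are not quite alike, since the 9 genes had 15 windows and all 27305 genes had 35116, fewer per gene. A word is a description of these letters and not a measured site.

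Values are normalized reads per library as the authors deposited them. Differences are on the log2(value + 1) scale, FOLFIRINOX minus vehicle, with their standard errors (SE), and were called at an adjusted p under 0.05 with limma across all 17951 genes that reached 10 normalized reads in at least 3 libraries. All 10 genes passed that filter, MYBL2 through its vehicle libraries alone. MYBL2, FOXM1, RBL1 and LIN9 were called lower and 0 of the 10 were called higher (limma; 0 were higher at an unadjusted p under 0.05, or by edgeR or DESeq2). Over all tested genes 12.2% were called lower and 11.4% higher. The median difference of the 10 genes was −0.49, against 0.02 for all tested genes. In bulk RNA, fewer cells that express a gene and less of its RNA in each cell cannot be told apart. The sample titles number the 3 libraries of each group but do not state whether they came from separate cultures. The p-values thus speak of the spread among these 6 libraries, which may be technical.

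**Figure D1:**
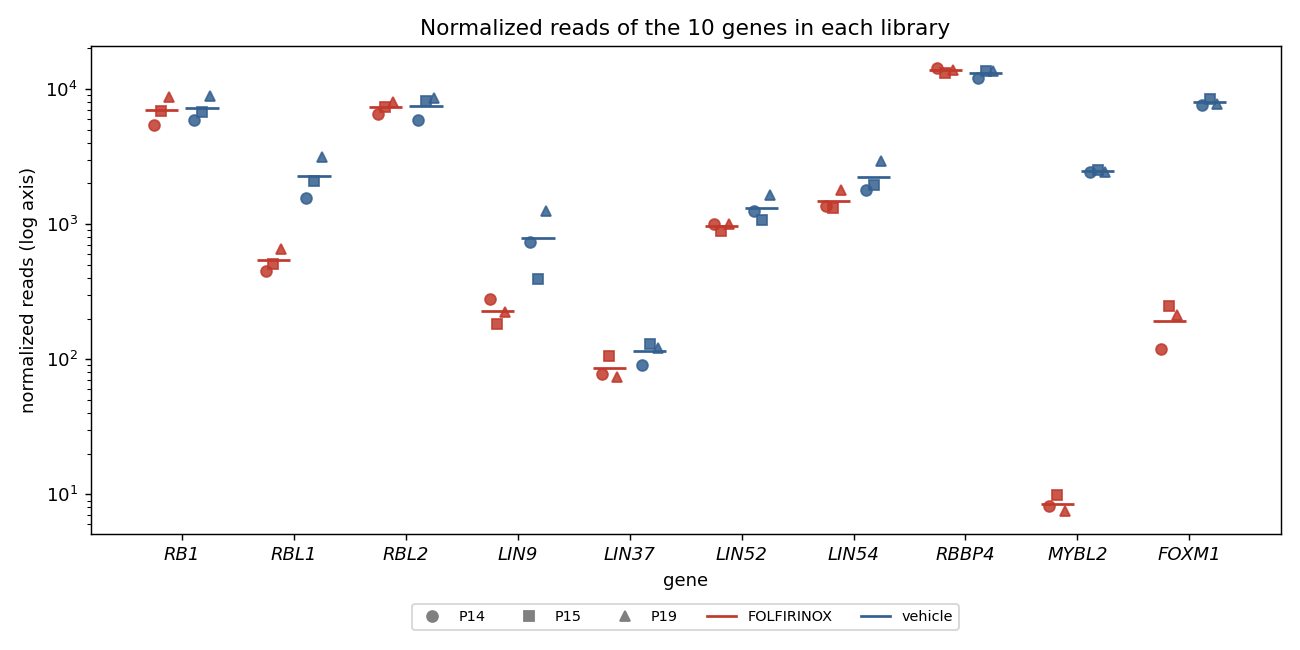
Normalized reads (log axis) of each of the 10 genes in the 3 FOLFIRINOX libraries (red, left of each pair) and the 3 vehicle libraries (blue), with symbols for the P number and bars for the group mean. The FOLFIRINOX libraries of MYBL2 lie at 7.47 to 9.84 and its vehicle libraries at 2440.3 to 2496, while the groups of RB1, RBL2 and RBBP4 lie over each other.

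The pocket protein genes divided into 1 that was lower and 2 that were not called. RB1 (ENSG00000139687, chr13:48303726-48599436) had 5400 normalized reads in P14, 6837 in P15 and 8737 in P19 after FOLFIRINOX, and 5920, 6794 and 8871 in vehicle P14, P15 and P19. Values of single libraries are given in this order of P numbers throughout, and gene coordinates are those of GENCODE 29 on GRCh38. The groups overlapped, and in both the P14 library was lowest and the P19 library highest. The difference was −0.05 (SE 0.21, 95% interval −0.52 to 0.42, limma adjusted p = 0.892).

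RBL2 (ENSG00000103479, chr16:53433977-53491649), the gene of p130, the pocket protein that predominates in quiescent cells, had 6544, 7402 and 8020.2 in FOLFIRINOX libraries and 5871, 8131 and 8602 in vehicle libraries. The groups overlapped and the difference was −0.03 (SE 0.18, 95% interval −0.43 to 0.37, limma adjusted p = 0.931).

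RBL1 (ENSG00000080839, chr20:36996349-37095995), the gene of p107, the pocket protein that predominates in cycling cells and is itself an E2F target, had 453, 505 and 657 in FOLFIRINOX libraries and 1562, 2081 and 3133 in vehicle libraries. Every FOLFIRINOX library lay below every vehicle library, and P19 was highest in each group. Means were 538 ± 106 and 2259 ± 800.3 (SD, n = 3 each), a 4.20-fold lower level. The log2 difference was −2.03 (SE 0.25, limma adjusted p = 2.4e-04), and the difference within P14, P15 and P19 was −1.79, −2.04 and −2.25.

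The ratio of RBL2 to RBL1 followed from these values. Per kilobase of exon, RBL2 gave 11.8, 11.9 and 9.92 times the reads of RBL1 in FOLFIRINOX libraries, and 3.06, 3.18 and 2.23 times in vehicle libraries. On the log2(value + 1) scale used for the test, not divided by length, the mean log2 ratio was 3.78 ± 0.15 in FOLFIRINOX and 1.78 ± 0.28 in vehicle libraries, a difference of 2.00. The groups did not overlap, and the two-sided exact permutation test gave p = 0.1, the smallest that 20 splits of 3 against 3 allow. With P numbers as pairs the exact p was 0.25, again the smallest possible.

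Among the 5 MuvB genes, LIN9 was called lower and RBBP4, LIN37, LIN52 and LIN54 were not. LIN9 (ENSG00000183814, chr1:226231149-226309869), the subunit that ties the core to its partners, had 278, 182 and 225 in FOLFIRINOX libraries and 731, 396 and 1252 in vehicle libraries. The groups did not overlap, but the vehicle libraries ranged widely, with P15 lowest and P19 highest. Means were 228 ± 48.0 and 793 ± 432 (SD, n = 3 each), a 3.48-fold lower level and a log2 difference of −1.66 (SE 0.36, limma adjusted p = 0.00676). Without both P14 libraries the difference was −1.79 and the call was lost (limma adjusted p = 0.0528).

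LIN54 (ENSG00000189308, chr4:82909973-83012926), the CHR-binding subunit, had 1358, 1312 and 1782 in FOLFIRINOX libraries and 1782, 1964 and 2947 in vehicle libraries, so that the highest FOLFIRINOX and the lowest vehicle library met. It was lower within each P number, with log2 differences of −0.39, −0.58 and −0.73 for P14, P15 and P19. The difference of −0.57 (SE 0.22) was not called (limma adjusted p = 0.0858) and was called with P number as a replicate block (adjusted p = 6.7e-04).

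LIN52 (ENSG00000205659, chr14:74084796-74201235), the subunit that DYRK1A phosphorylates to start DREAM assembly and that holds the pocket protein, had 1010.2, 892 and 1001 in FOLFIRINOX libraries and 1244, 1073 and 1631 in vehicle libraries. The groups did not overlap. The difference of −0.42 (SE 0.19) was not called (limma adjusted p = 0.137) and was called with the block (adjusted p = 0.0154). Removing each library's trend with GC content also put LIN54 (limma adjusted p = 0.0052) and LIN52 (0.0236) past the threshold.

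LIN37 (ENSG00000267796, chr19:35748361-35754519), a subunit that DREAM needs for repression, was the least abundant MuvB gene, with 77.2, 106 and 73.8 in FOLFIRINOX libraries and 91.2, 131 and 122 in vehicle libraries. The groups overlapped, and the difference of −0.41 (SE 0.27, 95% interval −1.01 to 0.18) was not called with or without the block (limma adjusted p = 0.181 and 0.296).

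RBBP4 (ENSG00000162521, chr1:32651142-32686211), a histone-binding protein that also serves in other chromatin complexes, had 14277, 13027 and 13815 in FOLFIRINOX libraries and 12093, 13620 and 13530 in vehicle libraries. The groups overlapped, with a difference of 0.07 (SE 0.14, 95% interval −0.25 to 0.38, limma adjusted p = 0.764). How the authors treated reads that match several genes is not given in the sources used here, which bears on RBBP4 and its close paralog RBBP7.

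**Figure D2:**
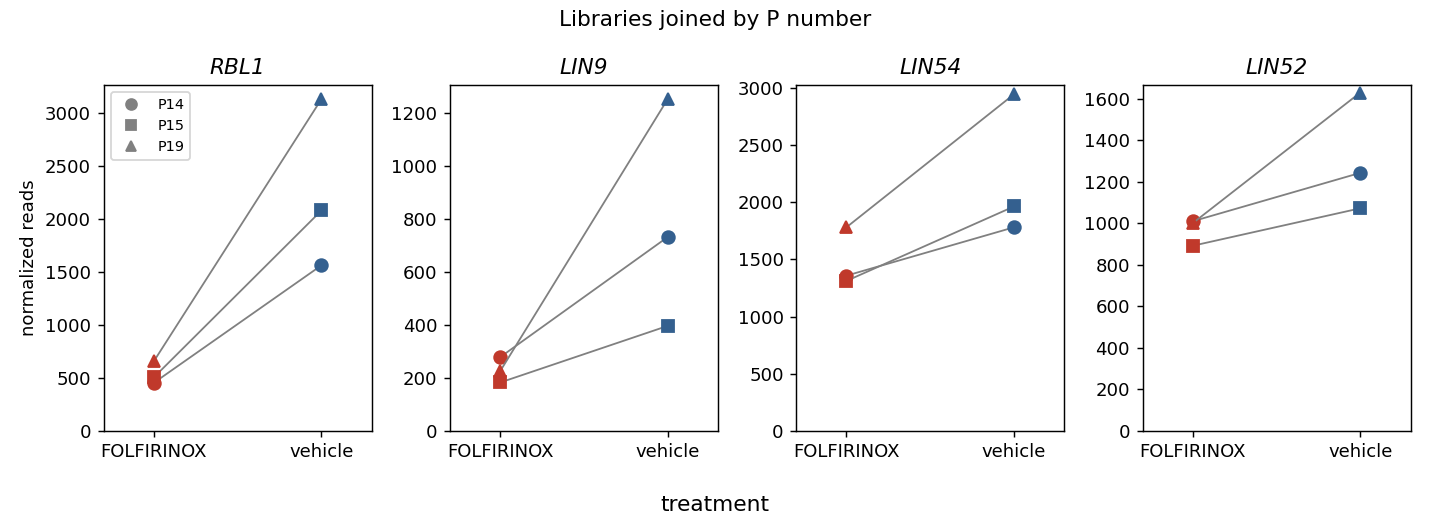
Normalized reads of RBL1, LIN9, LIN54 and LIN52, with FOLFIRINOX libraries (red) left of vehicle libraries (blue) and lines joining libraries of the same P number. Every line is lower at its FOLFIRINOX end, and P19 is the highest vehicle library in all 4 panels.

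Of all 10 genes, 7 were lower after FOLFIRINOX within every P number, as were 31.5% of tested genes. With the block, 6 of the 10 were called lower and 0 higher, where 21.8% of all tested genes were called lower, 22.3% higher and 44.1% in either direction. Without it, 4 of the 10 were called in either direction, where 23.6% of tested genes were. Groups did not overlap for 5 of the 10, all lower after FOLFIRINOX, where 39.5% of tested genes had groups that did not overlap and 19.6% had such groups and were lower. MYBL2 and FOXM1 stood apart from the rest in size.

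MYBL2 (ENSG00000101057, chr20:43667019-43716496), the gene of B-MYB, had 8.23, 9.84 and 7.47 normalized reads in FOLFIRINOX libraries (8, 10 and 8 reads) and 2440.3, 2496 and 2447 in vehicle libraries. The vehicle libraries lay close together, and every FOLFIRINOX library held a few reads. Means were 8.51 ± 1.21 and 2461 ± 30.2 (SD, n = 3 each), a 289-fold lower level. The log2 difference was −8.02 (SE 0.22, limma adjusted p = 3.4e-09), the 9th lowest of 17951.

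FOXM1 (ENSG00000111206, chr12:2857681-2877155), a forkhead factor of mitotic genes, had 119, 248 and 213 in FOLFIRINOX libraries and 7664, 8448 and 7785 in vehicle libraries. The groups were far apart, and P14 was lowest in each. Means were 193 ± 66.5 and 7966 ± 422 (SD, n = 3 each), a 41.2-fold lower level, and the log2 difference was −5.42 (SE 0.25, limma adjusted p = 9.5e-08). In the authors' deposited table the log2 fold changes were −8.18 for MYBL2, −5.36 for FOXM1, −2.07 for RBL1 and −1.80 for LIN9, and these 4 alone of the 10 genes passed an adjusted p of 0.05, where 19.4% of that table's 23247 tested genes did in either direction.

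**Figure D3:**
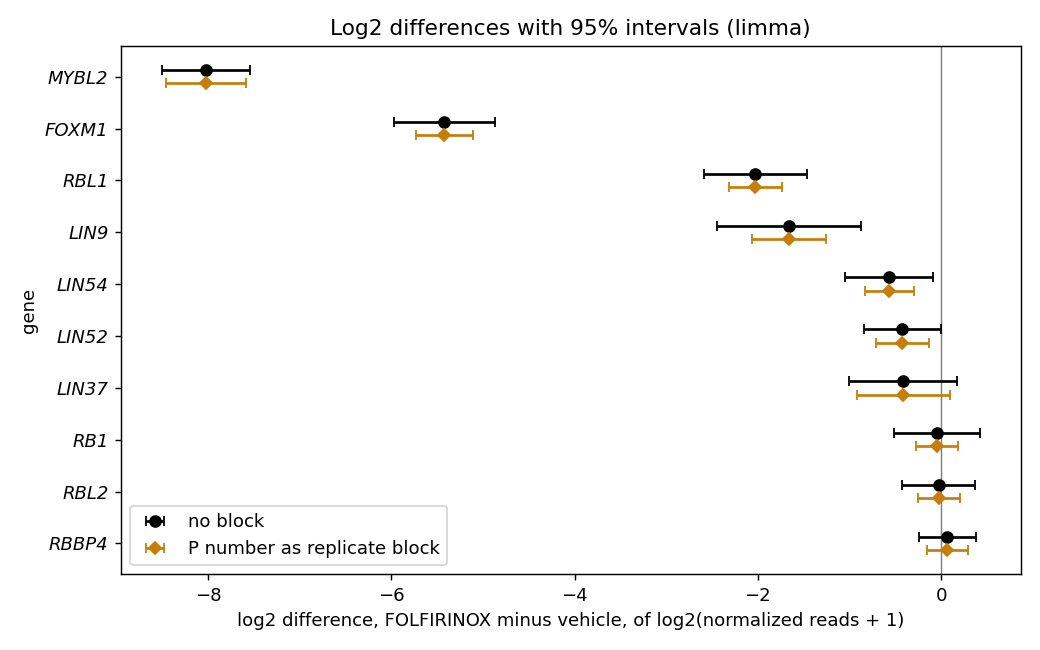
Log2 difference of each gene, FOLFIRINOX minus vehicle, with its 95% interval, without a block (black) and with P number as a replicate block (orange). MYBL2 at −8.02 and FOXM1 at −5.42 lie far left of RBL1 and LIN9, and the intervals of RB1, RBL2 and RBBP4 span 0.

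Scaled by exon length, the order of the 10 genes differed between the groups. In FOLFIRINOX libraries RBBP4 was highest, with 1447 ± 66.7 normalized reads per kilobase, followed by RB1 (1084 ± 259) and RBL2 (1000.3 ± 101), whose ranges overlapped. LIN52 (262 ± 17.8) and LIN54 (219 ± 38.3) came next and overlapped, then RBL1 (90.4 ± 17.9), apart from both. LIN9 (51.4 ± 10.8) lay below RBL1 with no overlap, and FOXM1 (39.5 ± 13.6) and LIN37 (30.4 ± 6.32) each overlapped the one before. MYBL2 was lowest at 3.07 ± 0.43, apart from LIN37.

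In vehicle libraries FOXM1 was highest, with 1626 ± 86.1 normalized reads per kilobase and no overlap with RBBP4 (1381 ± 90.5). RB1 (1115 ± 235), RBL2 (1029 ± 199) and MYBL2 (886 ± 10.9) followed, each with a range that overlapped the one before. RBL1 (379 ± 134) lay below MYBL2 with no overlap, and LIN52 (356 ± 77.5), LIN54 (330 ± 92.6) and LIN9 (179 ± 97.2) each overlapped the one before. LIN37 (40.6 ± 7.31) was lowest and apart from LIN9. Among 17335 genes ranked by this level, MYBL2 stood at percentile 2.63 in FOLFIRINOX and 77.5 in vehicle libraries, FOXM1 at 27.0 and 87.0, and RBL1 at 37.95 and 61.2. RB1 stood at 81.6 and 81.7, RBL2 at 80.2 and 80.3, and RBBP4 at 85.8 and 84.8.

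**Figure D4:**
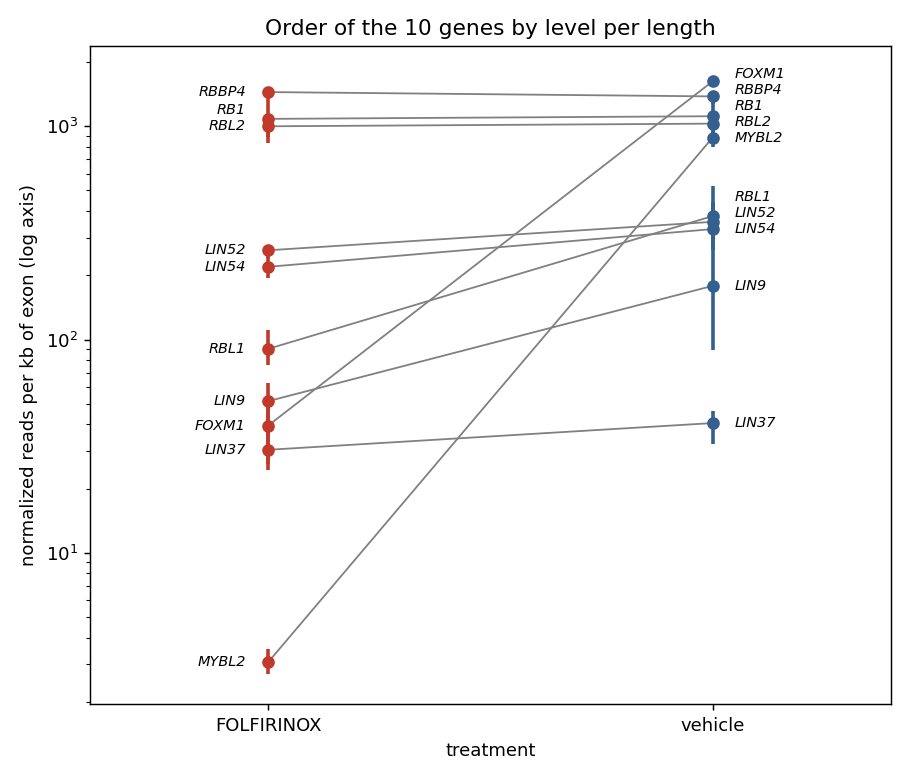
Normalized reads per kilobase of exon (log axis) of the 10 genes in FOLFIRINOX (red, left) and vehicle (blue, right) libraries, with dots for means and bars for the range of 3 libraries. MYBL2 is at 3.07 and 886, and FOXM1 at 39.5 and 1626, while the lines of RBBP4, RB1 and RBL2 are nearly level.

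The level of B-MYB RNA relative to its MuvB partner LIN9, per kilobase, was 0.0474, 0.0865 and 0.0531 in FOLFIRINOX libraries and 5.34, 10.1 and 3.13 in vehicle libraries. MYBL2 thus gave fewer reads than LIN9 in every FOLFIRINOX library and more in every vehicle library. On the log2(value + 1) scale, not divided by length, the mean log2 ratio was −4.58 ± 0.44 in FOLFIRINOX and 1.79 ± 0.85 in vehicle libraries, a difference of −6.36 (two-sided exact permutation p = 0.1, the smallest possible, n = 3 each).

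Neighbouring genes can bear on the reads of these loci, since the authors' strand setting is not given in the sources used here. Without it, reads could not be told apart where exons of both genes overlap. Overlap was taken over whole gene bodies, introns included, and sharing of exons was not tested. Genes that only start nearby do not overlap by that measure. Of 31 annotated genes that overlap one of the 10 or start within 1000 bases on the other strand, 12 could be tested, beside 6 of the 10 genes. Of these, 3 were called higher and 3 lower.

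At FOXM1, RHNO1, a checkpoint gene that starts 897 bases away on the other strand and overlaps it, had 1757 ± 291 and 3073 ± 255 normalized reads (FOLFIRINOX and vehicle, SD, n = 3 each) and fell by 0.82 (SE 0.17, limma adjusted p = 0.0064). TULP3, whose start lies 68 bases away on the other strand, had 3546 ± 70.4 and 4912 ± 137, a difference of −0.47 (limma adjusted p = 0.0362). That call was lost when any 1 of the 6 libraries was left out (adjusted p 0.0558 to 0.127). ITFG2, which also overlaps FOXM1, was not called (difference 0.20, limma adjusted p = 0.411). The differences of RHNO1 and TULP3 were far smaller in size than the −5.42 of FOXM1.

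At RBBP4, the overlapping SYNC had 7261 ± 813 and 2076 ± 559 normalized reads (SD, n = 3 each) and rose by 1.83 (limma adjusted p = 8.5e-05), and ZBTB8OS, which starts 239 bases away, had a difference of 0.69 (limma adjusted p = 0.124, and 5.8e-05 with the block). ALDH6A1, which starts 303 bases from LIN52, had 1355 ± 105 and 1960 ± 145, a difference of −0.53 (limma adjusted p = 0.0339), a call lost in 5 of 6 fits that left out 1 library (adjusted p 0.0458 to 0.116 over the 6). THAP9, which overlaps LIN54, was not called without the block (0.84, limma adjusted p = 0.0619) and was called with it (0.0011) or without the vehicle P19 library (0.0139).

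Within the span of RB1, RCBTB2 had a difference of 0.62 (limma adjusted p = 0.0409), lost in 4 of the 6 such fits (0.0202 to 0.138), and the pseudogene PCNPP5 one of 1.46 (0.0408), lost in 5 of them (0.0111 to 0.123). LPAR6 in RB1, and AKTIP and the unnamed ENSG00000279722 in RBL2, were not called (limma adjusted p = 0.983, 0.881 and 0.938).

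Other genes of the pathway are given as 5 lists, of which the 4 with 10 or more genes are drawn. The first holds 19 regulators of the pocket proteins and DREAM. Of these, 5 were called higher, 7 lower and 7 neither, with a median of −0.27.

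CDKN1A, the gene of the kinase inhibitor p21, had 179712, 234374 and 197331 normalized reads in FOLFIRINOX libraries and 26998, 22452 and 17018 in vehicle libraries, with no overlap (3.22, SE 0.19, limma adjusted p = 7.4e-07). Of the 3 D-type cyclins, which with CDK4 or CDK6 phosphorylate pocket proteins, 2 rose, namely CCND2 (10703 ± 1309 and 2553 ± 434, log2 difference 2.07, limma adjusted p = 1.3e-05) and CCND1 (241583 ± 11272 and 124935 ± 9470.0, 0.95, 8.6e-04). The third, CCND3, named after its value was seen, averaged 3238 ± 399.8 and 3931 ± 690.3 and was not called (−0.27, limma adjusted p = 0.313). LATS2, a kinase known to activate DYRK1A toward DREAM, rose by 0.82 (10141 ± 567 and 5773 ± 612, limma adjusted p = 0.00304). DYRK1A itself had 4063, 5243 and 5687 in FOLFIRINOX libraries and 3246, 4816 and 4540 in vehicle libraries, groups that overlapped, with a difference of 0.26 (SE 0.20, 95% interval −0.18 to 0.70, limma adjusted p = 0.383).

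CDK2, the partner of cyclins E and A, had 2088, 2115 and 1973 in FOLFIRINOX libraries and 6313, 6550 and 7055 in vehicle libraries, and fell by 1.69 (limma adjusted p = 1.4e-05). Its cyclins CCNE2 (22.2 ± 5.64 and 1022 ± 453, log2 difference −5.40, limma adjusted p = 1.2e-06) and CCNA2 (412 ± 24.9 and 10430 ± 2585, −4.63, 4.8e-08) fell as well, as did the CDK4 and CDK6 inhibitor gene CDKN2C (489 ± 67.7 and 2764 ± 182, −2.50, 2.4e-06). The other called regulators, named after their values were seen, were CCNE1 (−1.11, limma adjusted p = 0.00178), CDK4 (−0.63, 0.0136), CDKN2D (−0.65, 0.0312) and CDKN2B (0.51, 0.0353). The call of CDK4 was lost without the FOLFIRINOX P19 library (0.0752), and those of CDKN2D and CDKN2B were each lost in 5 of the 6 fits that left out 1 library. Kinase genes and inhibitor genes appeared on both sides of 0.

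Of the 10 E2F and DP genes, 0 were called higher and 5 lower (limma, without the block; 2 were higher with it), with a median of −0.40. E2F1, an activator that RB1 restrains, averaged 77.7 ± 9.32 and 983 ± 56.7 (log2 difference −3.65, limma adjusted p = 3.1e-07). E2F2, another activator, had 0 reads in every FOLFIRINOX library against 94.2, 117 and 59.8 normalized reads in vehicle libraries. With 3 reads per library as the floor it was 30.6-fold lower. That floor takes reads as independent, and 72.3% to 74.8% of counts below 50 were even, so it is not a firm lower bound. E2F8, a repressor E2F that peaks in S phase, had 0, 0 and 7.47 against 205, 245 and 319 (limma adjusted p = 6.3e-05). E2F2 and E2F8 passed the filter through their vehicle libraries alone.

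E2F4, the E2F of DREAM, had 1331, 1814 and 1533 in FOLFIRINOX libraries and 2676, 2486 and 1992 in vehicle libraries, with no overlap and a difference of −0.61 (SE 0.18, limma adjusted p = 0.0346). That call was lost in 4 of the 6 fits that left out 1 library (adjusted p 0.0172 to 0.114) and without both P14 libraries (0.224). TFDP1, a DP partner, averaged 11068 ± 453 and 18731 ± 1114 and fell by 0.76 (limma adjusted p = 0.00319).

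E2F5, the other E2F of DREAM, averaged 277 ± 36.4 and 262 ± 43.8 (log2 difference 0.09, limma adjusted p = 0.801). E2F3 (0.22, limma adjusted p = 0.380) and E2F6 (−0.18, 0.436) were not called either. E2F7, a repressor E2F, averaged 12150.3 ± 3185 and 7773 ± 1827 and was not called without the block (0.64, limma adjusted p = 0.0652), but was with it (1.6e-05), and TFDP2, the second DP partner, showed the same (0.43, 0.0564 without and 0.0037 with the block).

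Of the 3 paralogs, RBBP7, which stands in for RBBP4 in chromatin complexes, averaged 9441 ± 941 and 14757 ± 1641 and was called lower (−0.64, limma adjusted p = 0.0127), a call lost without the FOLFIRINOX P15 (0.0576) or P19 (0.061) library. MYB had 2.06, 0 and 1.87 normalized reads in FOLFIRINOX libraries and 51.2, 55.2 and 87.9 in vehicle libraries (limma adjusted p = 1.9e-04), and passed the filter through the vehicle libraries alone. MYBL1, the third MYB family gene, averaged 1482 ± 137 and 1998 ± 525 (−0.40, limma adjusted p = 0.179, and 0.0147 with the block).

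Of 24 G1/S genes that E2F and DREAM control, 22 were called lower and 1 higher, with a median of −2.53. The count called lower was 21 in each fit that left out 1 library and without both P14 libraries. SLBP, named after its value was seen, was called lower (−0.48, limma adjusted p = 0.0477). That call was lost in all 6 fits without 1 library (0.0718 to 0.166). RRM2, a subunit of ribonucleotide reductase, TK1, thymidine kinase, and the replication licensing genes CDC6 and CDT1 fell, with log2 differences of −6.91, −5.60, −5.40 and −4.92 (limma adjusted p = 3.4e-09, 9.0e-09, 2.3e-08 and 1.1e-07). CDT1, the least abundant of these, had 20.6, 29.5 and 22.4 in FOLFIRINOX libraries and 718, 786 and 754 in vehicle libraries. PCNA, a replication clamp gene, rose, with 32392 ± 2895 and 15831 ± 2451 (log2 difference 1.04, limma adjusted p = 0.00113), and the mismatch repair gene MSH6, named after its value was seen, was not called (−0.38, 0.194, and 0.011 with the block).

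All 25 G2/M genes controlled by DREAM, B-MYB and FOXM1 were called lower, with a median of −5.51 and no overlap between groups for any of them. AURKB, the chromosomal passenger kinase, had 2.06, 7.87 and 3.74 in FOLFIRINOX libraries and 1714, 1907 and 1930 in vehicle libraries (−8.52, limma adjusted p = 5.0e-08). The mitotic kinase gene NEK2 (−8.49), the ubiquitin-conjugating enzyme gene UBE2C (−8.44) and the CDK1-activating phosphatase gene CDC25C (−7.92) fell as well (limma adjusted p = 1.1e-08, 3.4e-09 and 1.0e-06). These 4 genes and PRC1, a spindle midzone gene named after its values were seen, stayed under 10 in every FOLFIRINOX library and passed the filter through their vehicle libraries alone, so they could only be tested because they were high there. The 25 genes were called lower under every setting in which the list was counted, which were the block, the 6 fits without 1 library and the fit without both P14 libraries. In the promoter windows, 15 of 20 of these genes held a CHR word (75.0%) and 8 an E2F word (40.0%), whereas 1 of 21 G1/S genes held a CHR word (4.76%) and 20 an E2F word (95.2%). Over all 27305 genes with windows the shares were 19.5% for CHR and 26.4% for E2F words. Both lists were written from general knowledge of such targets, so that choice may itself have set this contrast.

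**Figure D5:**
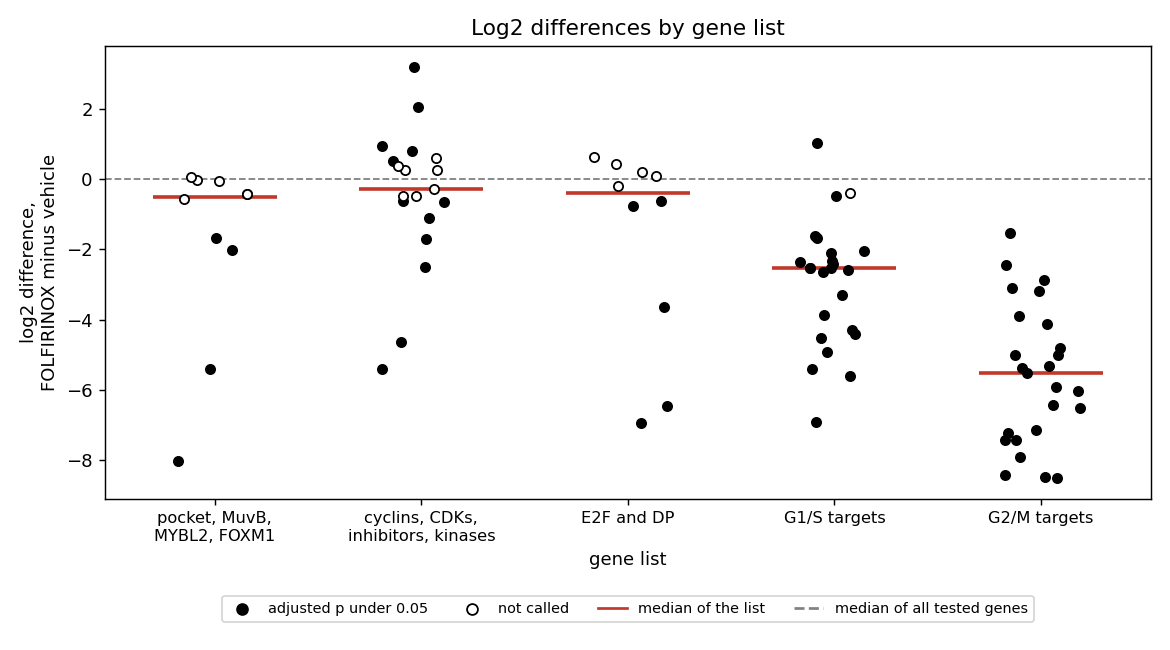
Log2 differences, FOLFIRINOX minus vehicle, of single genes in the 10 pocket, MuvB, MYBL2 and FOXM1 genes and in 4 lists of their pathway, filled where called (limma, adjusted p under 0.05), with red bars for medians and a dashed line for the median of all tested genes. Medians are −0.49, −0.27, −0.40, −2.53 and −5.51 from left to right.

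The genes with the profiles nearest to RBL2, MYBL2 and FOXM1 were found among 12108 genes by the root mean square distance between log2 values centred over the 6 libraries. For MYBL2 they were UBE2C, KIF2C (a mitotic kinesin) and CDC20 (an activator of the anaphase-promoting complex), at 0.258, 0.303 and 0.345. For FOXM1 they were CDCA8 (a chromosomal passenger subunit), SPAG5 (a spindle protein) and CDCA3, at 0.0915, 0.166 and 0.258. UBE2C, CDC20, CDCA8 and CDCA3 are also on the G2/M list. For RBL2 they were the chromatin genes KDM1B and NSD3, and AVL9, at 0.0271, 0.0304 and 0.0387. KDM1B had 2872, 3146 and 3435 in FOLFIRINOX libraries and 2555, 3664 and 3769 in vehicle libraries, lowest in P14 of each group as RBL2 was. That likeness follows from how the gene was chosen.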

How the data were processed

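Polyadenylated RNA was sequenced in 3 FOLFIRINOX and 3 vehicle libraries of HPNE-hTERT cells. Reads were checked with FastQC 0.12.1 and went through STAR 2.7.11b, featureCounts 2.0.6 and DESeq2 on GRCh38, per the submitters' processing notes. Which annotation, strand setting and DESeq2 design served is not given in the sources used. The deposited table holds a size-factor-normalized signal per library, beside which the authors gave log2 fold changes and their standard errors, a score (the test statistic) and p-values. Every deposited signal was a whole multiple (within 0.001) of 1 read, so reads were recovered (100% of values whole). Even numbers made up 72.3% to 74.8% of counts below 50, so single reads may not be independent counts, which was not tested.

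The columns are named by treatment and by a P number found in no label, and were assigned to groups. Deviations from group means correlated at 0.257 to 0.288 between libraries of the same P number and at −0.26 to −0.03 otherwise. Such deviations cancel within each group, so positive values for the same P number make the others negative on average. The negative values are thus no separate evidence of pairing. As every pair of the same P number passed 0.1, P numbers were used as a replicate block in an alternative, a choice made on these same data. Replicates differed by more than sampling noise (chi-square per degree of freedom 66.6 to 210.5).

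The test was limma 3.58.1 (R 4.3.3) with a mean-variance trend on log2(signal + 1), without a block, for genes at 10 or more in at least 3 libraries (2 where libraries were left out), with Benjamini-Hochberg adjustment at 0.05. On this scale the fold of low genes is understated, and the median standard error of a difference was 0.23. Alternatives were pseudocounts of 0.5 and 8, no filter and a filter at 50, TMM, equal-total and quantile scaling, no trend, edgeR 4.0.16 and DESeq2 1.42.0 on recovered reads, the block, removal of GC trends (GC known for 96.5% of tested genes) and leaving out libraries. Lengths and neighbours came from GENCODE 29. The 10 genes, the lists and the naming rule were chosen with earlier results of these data known. That rule takes the 10 genes, their paralogs, all E2F and DP genes, from each list up to 4 called genes in a direction (mean at least 50), CDKN1A, CDK2, DYRK1A and CCND1, tested neighbours, and 3 nearest profiles for RBL2, MYBL2 and FOXM1.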

Additional observations from a re-analysis of the deposited data

How the results depend on the processing

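Of the 10 genes, MYBL2, FOXM1 and RBL1 kept their direction and call in all 20 alternative settings, and LIN9 in 19 of them, the exception being the fit without both P14 libraries (−1.79, limma adjusted p = 0.0528). The count called lower was 4 of 10 without a block, 4 in each of the 6 fits that left out 1 library, 6 with the replicate block on P number, and 7 with GC trends removed and the block, where RB1 (−0.25, limma adjusted p = 0.0152) joined LIN54 and LIN52. The sign of RB1 turned with equal totals (0.061), and its value ran from −0.22 to 0.12 when 1 library was left out, above 0 without the FOLFIRINOX P14 or the vehicle P19 library. That of RBL2 turned with equal totals (0.083), with a range of −0.20 to 0.079 when 1 library was left out, above 0 without the FOLFIRINOX P14, vehicle P15 or vehicle P19 library. That of RBBP4 turned without both P14 libraries (−0.017) and with GC trends removed, with or without the block (−0.059). None of these reversed values was called, and the cause was not tested. Equal-total scaling moved the median of all genes by 0.11.

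Over all genes, 2047 were called higher and 2191 lower. Those counts were 3995 and 3918 with the replicate block, 4232 and 4734 with the block and GC trends removed, and 1162 and 1336 without both P14 libraries. They ranged from 1316 to 2262 and from 1540 to 2206 when 1 library was left out, with the lowest higher count without the FOLFIRINOX P19 library. Of the 81 pathway list genes, 6 were called higher, and 10 with GC trends removed and the block. Both log2 ratios kept their direction in every alternative run, and the cause of the differences between fits was not tested. With 8 to 10 reads for MYBL2 in FOLFIRINOX libraries, the size of its fold is limited by counting error.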
